A study of Mus musculus with 19 samples.

Results

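The transcripts described here were grouped under the label of prostate secretory proteins. Secretion itself was not measured. The set was given as 9 gene names: Pbsn, Tgm4, Azgp1, Msmb, Spink3, Fcgbp, Coch, Defb50 and 9530003J23Rik. Members were the rows that carry such a name, with the values of a gene's transcripts summed, and 8 of the 9 names were found among 24343 gene symbols. No row was named Spink3. RefSeq lists that name, a Kazal-type protease inhibitor of the pancreas and seminal vesicle, as a synonym of Spink1, and Spink1 was at or near 0 in every library. It read 0.23, 0 and 0.62 FPKM in the toxin-treated Lgr5-DTR luminal libraries and 0, 2.28 and 0.58 FPKM in the wild type luminal libraries.

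RNA was sequenced from basal, luminal and stromal cells that had been flow-sorted from anterior prostates of mice. The Lgr5-DTR-eGFP mice were treated with diphtheria toxin. They carry the toxin's receptor joined to a green fluorescent protein at Lgr5, the gene of an R-spondin receptor, so that toxin kills cells in which Lgr5 is active. Wild type mice served as controls. The Lgr5-DTR-eGFP mice came from another laboratory, and the C57BL/6 mice of the study from a commercial breeder. Toxin treatment of the wild type mice, the toxin dose, the age of the animals and the time after toxin are not given in the sources used here. Genotype, toxin and origin of the mice therefore cannot be told apart. The groups were Lgr5-DTR luminal (3 libraries) against wild type luminal (3), Lgr5-DTR basal (3) against wild type basal (3), and Lgr5-DTR stromal (4) against wild type stromal (3), 19 libraries in all. Separate animals per library are not stated, so each p-value reflects the spread over libraries alone, and that spread may be technical. RNA had been amplified with a low-input full-length kit, and values are FPKM, the number of fragments relative to transcript length and library size, a unit in which levels of different genes can be set side by side.

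Luminal cells of the prostate are columnar secretory cells. Androgen keeps their secretory genes active, and these transcripts fall after castration. The anterior lobe, also called the coagulating gland, lies against the seminal vesicle, and its secretion helps to clot semen into the copulatory plug. Pbsn encodes probasin, a lipocalin whose rat promoter is widely used to drive transgenes in prostate epithelium. Tgm4 encodes the transglutaminase that crosslinks seminal vesicle proteins in the plug. Azgp1 encodes zinc-alpha-2-glycoprotein, a secreted protein with a fold like that of major histocompatibility class I chains, and Msmb encodes beta-microseminoprotein, in humans a main protein of seminal plasma. Defb50 encodes a beta-defensin, a small cationic peptide of a family that kills microbes. 9530003J23Rik carries the RefSeq synonym Lyzf1, and its transcript had 72.1% identity with that of lysozyme Lyz1 over 427 aligned bases. Fcgbp encodes a large mucin-like protein of mucus that binds the Fc part of immunoglobulin G, and Coch encodes cochlin, an extracellular matrix protein best known from the inner ear.

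Promoters are shown for 3 members that fell together in luminal cells and for Coch, which was high in another population. Of the members, 6 had an entry among the 32851 promoters of 300 bases of the RefSeq table used (build GRCm38.p6, 250 bases before to 50 after the start). Capitals mark matches to the letters TATAAA, the TATA box motif of core promoters, or to the reverse complement TTTATA. Matches were marked anywhere in the window, so a match need not be a working TATA box.
Pbsn: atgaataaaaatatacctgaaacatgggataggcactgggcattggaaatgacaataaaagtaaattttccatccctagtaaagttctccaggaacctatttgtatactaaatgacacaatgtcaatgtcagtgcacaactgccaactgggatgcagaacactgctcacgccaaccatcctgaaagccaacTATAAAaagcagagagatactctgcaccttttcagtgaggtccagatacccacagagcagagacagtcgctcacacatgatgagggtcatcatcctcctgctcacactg
Azgp1: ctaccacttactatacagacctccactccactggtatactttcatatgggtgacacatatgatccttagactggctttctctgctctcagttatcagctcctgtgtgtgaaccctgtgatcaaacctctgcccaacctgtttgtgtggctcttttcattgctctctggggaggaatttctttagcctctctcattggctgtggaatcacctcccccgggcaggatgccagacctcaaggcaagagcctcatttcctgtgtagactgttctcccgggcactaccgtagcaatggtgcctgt
9530003J23Rik: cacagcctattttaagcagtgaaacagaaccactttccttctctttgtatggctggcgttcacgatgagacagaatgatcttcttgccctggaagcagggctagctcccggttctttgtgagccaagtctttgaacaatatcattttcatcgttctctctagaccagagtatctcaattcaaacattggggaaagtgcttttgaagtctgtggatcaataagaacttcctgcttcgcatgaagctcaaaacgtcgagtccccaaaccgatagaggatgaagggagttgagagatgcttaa
Coch: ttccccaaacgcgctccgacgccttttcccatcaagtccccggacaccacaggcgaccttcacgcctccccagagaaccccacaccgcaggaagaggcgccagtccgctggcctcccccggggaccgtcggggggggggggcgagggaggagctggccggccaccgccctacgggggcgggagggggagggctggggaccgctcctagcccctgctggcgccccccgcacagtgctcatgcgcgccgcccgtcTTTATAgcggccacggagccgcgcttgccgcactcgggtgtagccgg
The Pbsn window is chrX:77853451-77853750 on the minus strand, and its TATAAA began 59 bases before the start. Coch is shown from chr12:51593091-51593390 on the plus strand, with a TTTATA beginning at base 4 after the start. The windows of Azgp1 (chr5:137981271-137981570, plus strand) and 9530003J23Rik (chr10:117238632-117238931, minus strand) held no match, nor did that of Fcgbp, while Tgm4 had 1 at 30 bases before the start. Matches stood in 13.6% of all promoters of this length, so 3 of 6 is a description of these letters and nothing more. The Coch window differed from the other members' in base composition, with 73.7% GC and 32 CpG, against 43.3% and 2 in Pbsn and medians of 52.7% and 7 over all promoters.

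On mm10, the build of the deposited tables, Pbsn lies at chrX:77837898-77853500 (minus strand), Tgm4 at chr9:123034741-123067558, Azgp1 at chr5:137981521-137990232 and Msmb at chr14:32142023-32158326. 9530003J23Rik lies at chr10:117233753-117238681 (minus strand), Defb50 at chr8:21823539-21831296, Fcgbp at chr7:28071236-28120864 and Coch at chr12:51593341-51605773, and all but Pbsn and 9530003J23Rik are on the plus strand. No other gene in the tables overlapped any of them. Coch was listed with 2 transcripts and the others with 1.

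The libraries held 5.26 to 9.38 gigabases aligned on transcripts (median 7.73), and 9209 to 10819 genes reached 1 FPKM. In 7 libraries (1 Lgr5-DTR and 2 wild type luminal, 2 and 1 basal, 1 and 0 stromal) the tables carried 424 low-data entries each that the other 12 lacked. Lgr5, whose locus carries the receptor, read 0.501 to 1.32 FPKM in Lgr5-DTR stromal and 25.8 to 77.6 FPKM in wild type stromal libraries. The sorts went with their defining markers, with a limit for the luminal keratins. All 12 basal markers were lower in wild type luminal than in wild type basal cells and all 10 fibroblast markers lower than in stromal cells, but only 8 of 12 luminal markers were higher in luminal than in basal cells. Krt8, for example, measured 1210 to 2518 FPKM in wild type luminal and 1125 to 1559 FPKM in wild type basal libraries. In bulk libraries, fewer cells of a type and less RNA per cell cannot be told apart.

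Most of the set was expressed at its highest level in luminal cells. Pbsn was the most or next most abundant transcript there among genes with a usable estimate. Its level was 9401, 7500 and 9647 FPKM in the 3 Lgr5-DTR luminal libraries, rank 1 or 2 of those genes. In the 3 wild type luminal libraries it was 16876, 22090 and 19870 FPKM, rank 1 in each with Tgm4 left out. Pbsn alone made up 1.75 to 2.41% of summed FPKM in Lgr5-DTR luminal and 3.92 to 5.23% in wild type luminal libraries. Tgm4 stood beside it at 8420, 8731 and 8765 FPKM in the Lgr5-DTR luminal libraries. In all 3 wild type luminal libraries the Tgm4 estimate carried a status that marks a locus with too many fragments and was written as 0. It was left out there, so the wild type shares and ranks above lack Tgm4, and its place relative to Pbsn is unknown. The estimate of 9530053A07Rik was failed or capped and left out in all luminal libraries of both genotypes. For Tgm4 in luminal cells, no wild type level and hence no difference between genotypes can be given.

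**Figure D1:**
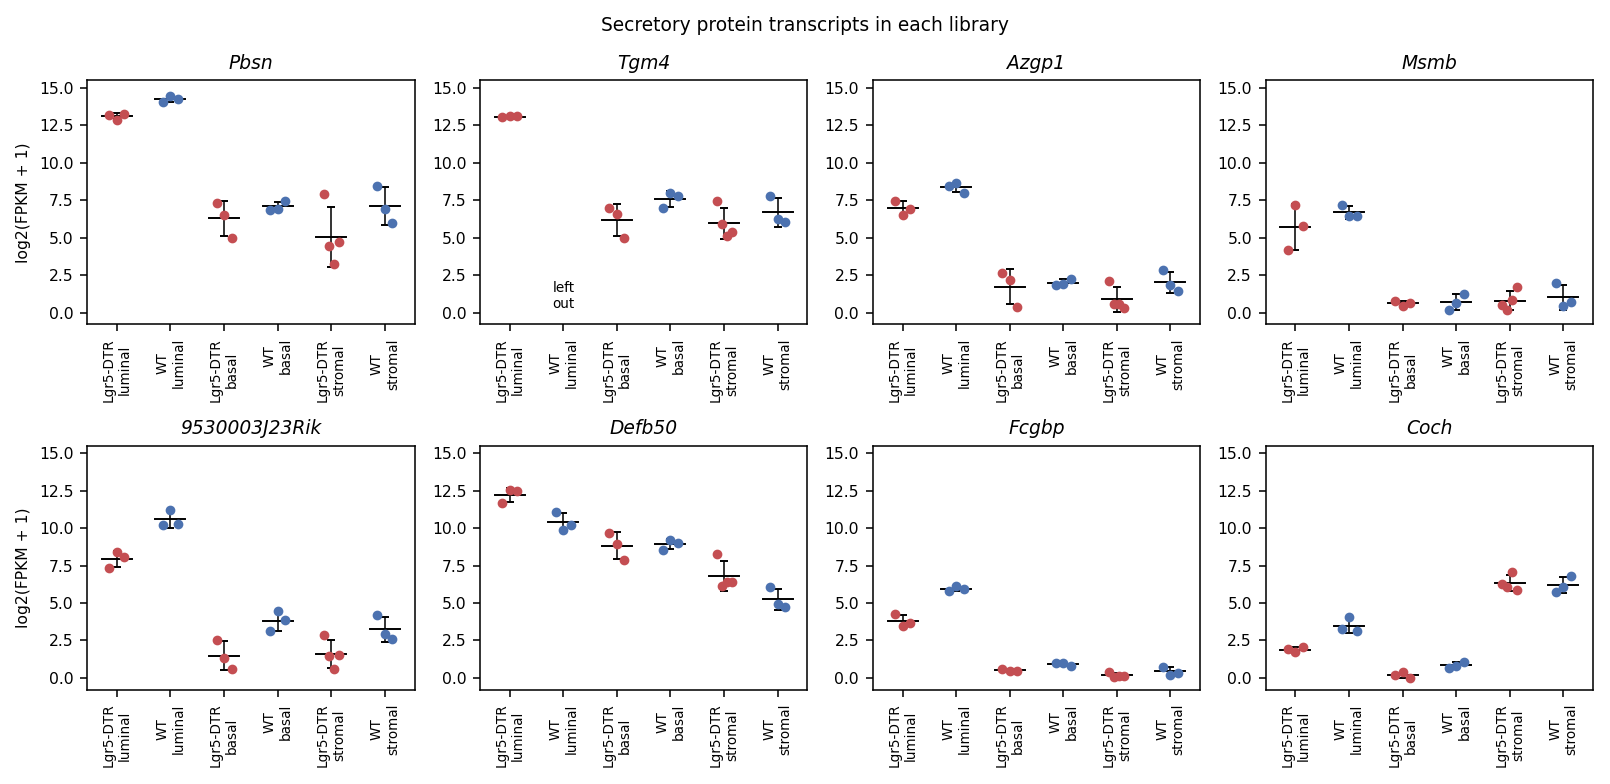
Level of each transcript as log2(FPKM + 1) (vertical axis, the same in every panel) in the 19 libraries, by group along the horizontal axis. Red points are Lgr5-DTR libraries, blue points wild type libraries, horizontal lines means and bars SD. All panels but that of Coch peak in a luminal group, Coch peaks in the stromal groups, and the Tgm4 estimates of wild type luminal libraries are left out.

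In wild type mice, each of the 7 members that could be tested was higher in luminal than in basal cells, where 68.8% of all tested genes were called, 40.5% higher and 28.2% lower. The libraries of the 2 populations did not overlap for any of the 7, as for 72.9% of tested genes. Pbsn measured 19612 ± 2617 FPKM in wild type luminal and 136 ± 31.6 FPKM in wild type basal cells (SD, n = 3 each), a log2 difference of 7.17 (SE 0.19, adjusted p = 2.05e-10, limma with Benjamini-Hochberg adjustment). This log2 difference ranked 2 from the top of 10460 genes. Azgp1 was higher by 6.36 (SE 0.20, limma adjusted p = 4.02e-10) and 9530003J23Rik by 6.78 (SE 0.38, limma adjusted p = 1.02e-06). The basal levels of most members were thus a small share of the luminal ones. The mean in wild type basal cells was 0.695% of the wild type luminal mean for Pbsn, 0.911% for Azgp1, 0.652% for Msmb, 0.862% for 9530003J23Rik and 1.46% for Fcgbp. Msmb, Fcgbp and Coch passed the filter on low values through the luminal libraries, so they could hardly be tested without differing.

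Defb50 was the exception among the luminal transcripts. It measured 2160, 957 and 1188 FPKM in wild type luminal libraries against 373, 595 and 515 FPKM in wild type basal libraries. The groups did not overlap, and the log2 difference was 1.47 (SE 0.29, limma adjusted p = 0.00107). Its basal mean was 10.5% of the luminal mean in Lgr5-DTR mice (4.79 to 16.8% over the basal libraries) and 34.4% in wild type mice (26.0 to 41.5%). The stromal mean of Defb50 was 2.81% of the luminal mean in Lgr5-DTR and 2.81% in wild type mice.

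**Figure D2:**
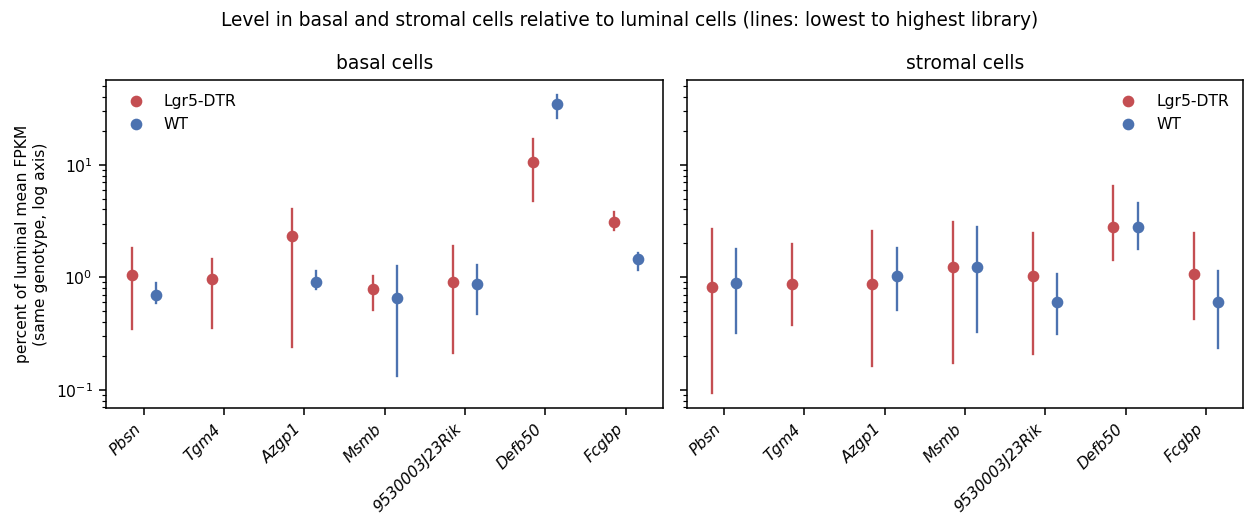
Mean level of each transcript in basal cells (left) and stromal cells (right) as a percent of the luminal mean of the same genotype, on a log axis. Points are means, lines run from the lowest to the highest library, red is Lgr5-DTR and blue wild type. Most points lie near 1%, and Defb50 stands at 10.5% (Lgr5-DTR) and 34.4% (wild type) in basal cells. Coch is not drawn because its stromal level is above its luminal level, and wild type Tgm4 because its luminal estimates were left out.

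Coch went against the label of the set, since it was highest in stromal cells. It measured 77.6, 67.3, 133 and 56.6 FPKM in Lgr5-DTR stromal and 52.0, 65.3 and 111 FPKM in wild type stromal libraries. In luminal cells it was at 2.73, 2.30 and 3.12 FPKM in Lgr5-DTR and 8.64, 15.9 and 7.65 FPKM in wild type libraries. All stromal libraries lay above all luminal ones, and in wild type 70.5% of tested genes showed no overlap between luminal and stromal libraries. In wild type, luminal cells were lower than stromal cells by a log2 difference of -2.71 (SE 0.32, limma adjusted p = 2.44e-05) and higher than basal cells by 2.66 (SE 0.27, limma adjusted p = 2.90e-06). Against wild type stromal cells, the other 6 tested members were higher in luminal cells, in a comparison in which 66.2% of tested genes were called, 38.4% higher and 27.8% lower. Msmb and Fcgbp passed the filter here too through the luminal libraries, so their direction follows from it. The log2 differences were 7.14 for Pbsn (SE 0.59), 7.33 for 9530003J23Rik (SE 0.42) and 5.15 for Defb50 (SE 0.39), with limma adjusted p of 5.98e-05, 7.98e-07 and 4.32e-06. With trimmed-mean (TMM) scaling, the split of all calls was 3382 higher and 3726 lower, against 4292 and 3105 without it, and the directions of the members did not change.

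Between genotypes, the luminal cells of toxin-treated Lgr5-DTR mice had less of most secretory transcripts and more of the defensin. Of 7 members tested, 5 fell (Pbsn, Azgp1, 9530003J23Rik, Fcgbp and Coch), Defb50 rose, and Msmb did not pass the test. The share called among all 10524 tested genes was 3.14%, with 2.62% called higher and 0.513% called lower. The median log2 difference was -1.39 over the 7 members and 0.10 over all tested genes. Members were chosen with earlier results of these data known, so this contrast with all genes is a description and not a test of the set. Over all genes 276 were called higher and 54 lower, a split that was 219 and 93 with TMM scaling and 143 and 71 with quantile normalization.

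Among the proteins of seminal fluid, Pbsn averaged 8849 ± 1175 FPKM in Lgr5-DTR luminal cells and 19612 ± 2617 FPKM in wild type luminal cells (SD, n = 3 each). The highest Lgr5-DTR library, at 9647 FPKM, lay below the lowest wild type library, at 16876 FPKM. The log2 difference was -1.15 (SE 0.23, limma adjusted p = 0.0307), so that the mean was 0.451 times that of wild type. Azgp1 read 172, 90.01 and 121 FPKM in Lgr5-DTR and 340, 397 and 256 FPKM in wild type luminal libraries, again without overlap. Its log2 difference was -1.39 (SE 0.26, limma adjusted p = 0.0252). Msmb varied most among the Lgr5-DTR libraries, with 16.7, 142 and 54.3 FPKM against 144, 86.4 and 84.6 FPKM in wild type. The Msmb groups overlapped, and its log2 difference of -0.98 (SE 0.75, limma adjusted p = 0.469) was within the spread; without Lgr5-DTR replicate 1 it was -0.21.

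The defensin and the lysozyme-like member moved in opposite directions, and antimicrobial activity was not measured. The lysozyme-like 9530003J23Rik was at 162, 332 and 267 FPKM in Lgr5-DTR and 1184, 2386 and 1260 FPKM in wild type luminal libraries. Every Lgr5-DTR library lay below every wild type library, and the mean was 0.157 times that of wild type. The log2 difference of -2.65 (SE 0.34, limma adjusted p = 0.00817) ranked 10 from the bottom of all tested genes. Defb50 read 3227, 5832 and 5569 FPKM in Lgr5-DTR libraries and 2160, 957 and 1188 FPKM in wild type libraries. All Lgr5-DTR libraries were above all wild type libraries, the mean was 3.40 times that of wild type, and the log2 difference was 1.80 (SE 0.34, limma adjusted p = 0.0278). By level among genes with a usable estimate, Defb50 ranked 3 to 11 in Lgr5-DTR luminal libraries and 17 to 52 in wild type luminal libraries.

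For the mucin-like Fcgbp, the Lgr5-DTR luminal libraries read 18.2, 10.1 and 12.0 FPKM and the wild type luminal libraries 54.4, 68.0 and 60.3 FPKM. The groups were far apart, with a log2 difference of -2.14 (SE 0.22, limma adjusted p = 0.00318) that ranked 11 from the bottom. The transcript of 9530053A07Rik had 85.6% identity with Fcgbp over 5913 bases, and its own estimate failed in all luminal libraries of both genotypes, so the split of reads between these 2 genes is uncertain. Coch, at the low luminal values given above, had a log2 difference of -1.60 (SE 0.27, limma adjusted p = 0.0199), and its luminal groups did not overlap. Lack of overlap was found in 6 of the 7 members and in 27.1% of all tested genes.

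**Figure D3:**
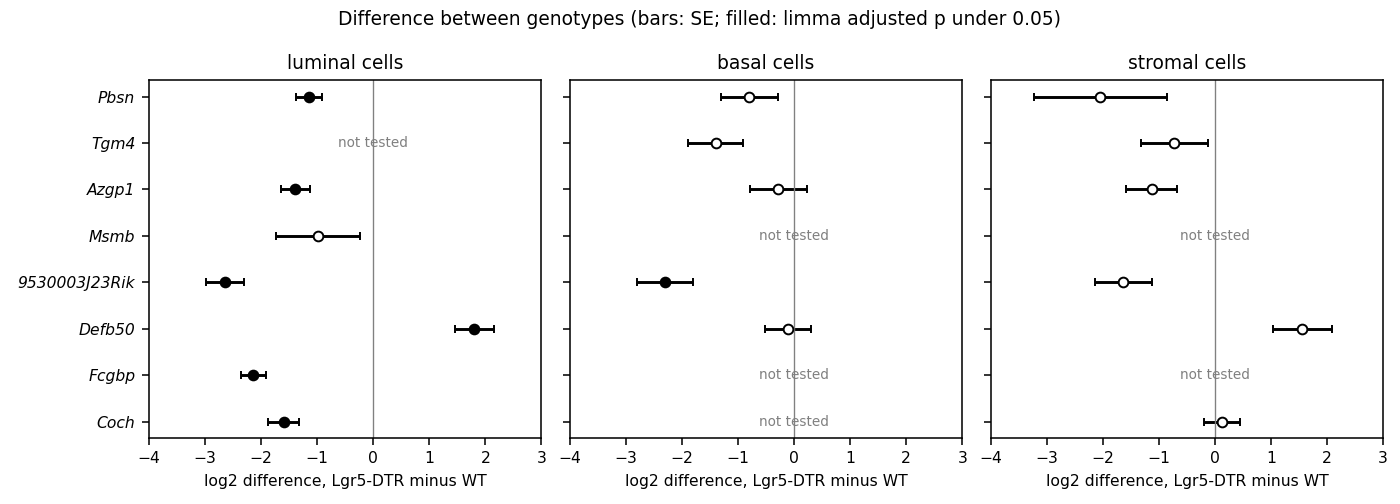
Log2 difference of log2(FPKM + 1) between genotypes (horizontal axis, Lgr5-DTR minus wild type) for each transcript in luminal, basal and stromal cells. Bars are SE, and filled points passed a limma adjusted p of 0.05. In luminal cells 6 transcripts lie to the left of 0, of which 5 are filled, and Defb50 lies at 1.80; in basal cells only 9530003J23Rik is filled, and in stromal cells none.

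These calls rested on few libraries. Without wild type luminal replicate 3, none of the 6 was called (1818 genes had an unadjusted p under 0.05 and 0 were called by limma), with limma adjusted p of 0.0779 for Fcgbp and 0.0782 for 9530003J23Rik. Without wild type replicate 2 only these 2 were called, with 0.0377 and 0.0428. Without Lgr5-DTR replicate 2, Pbsn (limma adjusted p = 0.0972), Azgp1 (0.0533) and Defb50 (0.067) were not called. None of the 6 changed direction when any 1 library was left out. With no filter on low values limma called 4 genes and no member, while 2947 genes had an unadjusted p under 0.05.

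Markers of other cells also differed between the luminal groups, in a comparison in which 2.62% of all tested genes were called higher. The summed level of 10 proximal luminal markers was 1277 to 4166 FPKM in Lgr5-DTR luminal and 241 to 713 FPKM in wild type luminal libraries, with 2 of 9 tested (Clu and Ly6d) called higher and Ltf at 0 in all wild type luminal libraries. Fibroblast markers summed to 69.7 to 147 and 42.8 to 59.6 FPKM, and 4 of 5 tested were called higher (Col1a1, Col1a2, Col3a1 and Pdgfrb). Dcn, the other, was not called, at 7.38 to 15.3 FPKM in Lgr5-DTR and 11.9 to 34.6 FPKM in wild type libraries. Pdgfra was at 0.229 FPKM or less in Lgr5-DTR and 0.184 FPKM or less in wild type libraries. Macrophage markers summed to 32.3 to 142 and 21.6 to 28.2 FPKM, with 1 of 7 tested (Lyz2) called higher. The 12 luminal markers summed to 5919 to 10900 FPKM in Lgr5-DTR and 5215 to 8513 FPKM in wild type luminal libraries, with none called of 12 tested, and basal markers to 218 to 636 and 173 to 559 FPKM, with none called of 10 tested. The part of these markers in the changes of the secretory transcripts was not tested. Seminal vesicle transcripts were nearly absent, since the 8 genes of that list summed to at most 1.00 FPKM in Lgr5-DTR and 0.73 FPKM in wild type luminal libraries, and none reached the filter.

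In basal cells, 1 member of 5 tested was called, while 11.0% of 9755 tested genes were called, 6.50% higher and 4.46% lower. This was 9530003J23Rik, at 4.84, 1.48 and 0.53 FPKM in Lgr5-DTR basal and 7.63, 20.7 and 13.4 FPKM in wild type basal libraries. The groups did not overlap, as in 31.1% of tested genes, and the log2 difference was -2.31 (SE 0.50, limma adjusted p = 0.0233). The call was lost with a pseudocount of 0.1 (limma adjusted p = 0.0548) and without Lgr5-DTR replicate 2, Lgr5-DTR replicate 3, wild type replicate 2 or wild type replicate 3 (limma adjusted p of 0.0703 to 0.108). Pbsn read 159, 90.2 and 30.9 FPKM against 116, 120 and 173 FPKM, with a log2 difference of -0.80 (SE 0.51, limma adjusted p = 0.352). Tgm4 read 126, 93.0 and 30.3 FPKM in Lgr5-DTR basal and 124, 246 and 218 FPKM in wild type basal libraries, a log2 difference of -1.39 (SE 0.49, limma adjusted p = 0.111). Defb50 was at 819, 478 and 234 FPKM in Lgr5-DTR and 373, 595 and 515 FPKM in wild type basal libraries, with a difference of -0.11 (SE 0.41, limma adjusted p = 0.895). For Pbsn, Tgm4 and Defb50 the groups overlapped, and Lgr5-DTR basal replicate 3 was the lowest of its group for each. Without that library the log2 difference was -0.16 for Pbsn and -0.79 for Tgm4, and without Lgr5-DTR replicate 1 it was -1.32 for Pbsn, none of them called. Azgp1 was at most 5.13 FPKM in Lgr5-DTR basal and 3.76 FPKM in wild type basal libraries and was not called (limma adjusted p = 0.759). Msmb, Fcgbp and Coch did not pass the filter in basal cells. Beside these values, proximal luminal markers summed to 3664 to 6228 FPKM in Lgr5-DTR basal and 1507 to 2221 FPKM in wild type basal libraries. Of these markers, 5 of 8 tested were called higher, and Ltf was at 0 in wild type. Fibroblast markers summed to 313 to 639 FPKM in Lgr5-DTR basal and 734 to 883 FPKM in wild type basal libraries. Both of the 2 tested (Col3a1 and Dcn) were called lower. Nearly all of the fibroblast sum was Dcn, at 313 to 636 FPKM in Lgr5-DTR and 730 to 880 FPKM in wild type basal libraries. Col1a1 reached at most 0.27 FPKM in Lgr5-DTR and 0.46 FPKM in wild type basal libraries. The part of either list was not tested.

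In stromal cells none of 6 members tested was called by limma, where 1.17% of 10689 tested genes were called, 0.0655% higher and 1.10% lower. Of the 6 members, 3 had an unadjusted p under 0.05 (limma), as did 1230 of the 10689 tested genes. Defb50 read 314, 69.8, 81.7 and 83.4 FPKM in Lgr5-DTR stromal and 65.5, 30.1 and 25.4 FPKM in wild type stromal libraries. It was the only tested member without overlap, as 11.2% of tested genes were, with a log2 difference of 1.56 (SE 0.53, limma adjusted p = 0.275) that had the luminal sign. 9530003J23Rik was at 6.28, 1.70, 0.53 and 1.90 FPKM in Lgr5-DTR and 17.2, 6.71 and 5.06 FPKM in wild type stromal libraries, a log2 difference of -1.63 (SE 0.51, limma adjusted p = 0.211). Pbsn, at 239, 20.7, 8.28 and 24.9 FPKM against 347, 118 and 62.6 FPKM, had the widest spread of the set on the log2 scale. Its log2 difference was -2.05 (SE 1.19, limma adjusted p = 0.623). Lgr5-DTR stromal replicate 1 held far more Pbsn and Defb50 than the other 3 of its group, and its 12 luminal markers summed to 277 FPKM against 91.8 to 151 FPKM in those 3. Wild type stromal replicate 1 stood apart in the same way, with 347 FPKM of Pbsn and luminal markers that summed to 226 FPKM, against 92.9 and 107 FPKM in the other 2 of its group. Without the Lgr5-DTR library the log2 differences were -3.00 for Pbsn (limma adjusted p = 0.0642), 1.06 for Defb50 (0.274) and -2.05 for 9530003J23Rik (0.0871), and none was called. Without the wild type library the log2 difference was -1.38 for Pbsn, and for Tgm4 it was -0.19 (-0.73 with all libraries), and again none was called. Coch, the stromal member, differed by 0.13 (SE 0.32, limma adjusted p = 0.952), with a sign that turned without Lgr5-DTR replicate 3 (-0.12) and without wild type replicate 1 (-0.11). Fibroblast markers summed to 2948 to 3611 FPKM in Lgr5-DTR stromal and 5721 to 5984 FPKM in wild type stromal libraries, with 3 of 10 called lower and none at 0, and the part of this was not tested.

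Whether a genotype difference was larger in luminal than in basal cells was tested directly, over 11275 genes of which 5.53% were called, 4.05% higher and 1.48% lower. Of 7 members, Fcgbp was called, with a difference of differences of -1.72 (SE 0.29, limma adjusted p = 0.00596). Its basal values, all under 1 FPKM, were 0.51, 0.35 and 0.38 in Lgr5-DTR and 0.97, 0.99 and 0.70 in wild type libraries, and with a pseudocount of 0.1 the value was -1.28 (limma adjusted p = 0.0659). Defb50 had a difference of differences of 1.91 (SE 0.60, limma adjusted p = 0.0823), so that its luminal rise was not shown to differ from its basal value. It was called without Lgr5-DTR basal replicate 1 (limma adjusted p = 0.0186) and without wild type luminal replicate 1 (0.0415), and Azgp1 was called without Lgr5-DTR basal replicate 3 (0.0289). For 9530003J23Rik it was -0.34 (SE 0.69, limma adjusted p = 0.807) and for Pbsn -0.35 (SE 0.60, limma adjusted p = 0.771), and both turned sign in some other settings. Over all genes, 457 were called higher and 167 lower, a split that was 403 and 254 with TMM scaling and 354 and 266 with quantile normalization.

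Set against Pbsn in the same library, the composition of the set differed with population and genotype. Defb50 measured 0.343 to 0.778 times the Pbsn level in Lgr5-DTR luminal and 0.0433 to 0.128 times in wild type luminal libraries. In basal cells Defb50 was above Pbsn in every library, at 5.14 to 7.56 times in Lgr5-DTR and 2.98 to 4.96 times in wild type. In stromal cells the ratio was 1.31 to 9.86 in Lgr5-DTR and 0.189 to 0.405 in wild type libraries. For Azgp1 the ratio kept within a narrower range and overlapped between genotypes in luminal cells, at 0.0120 to 0.0183 in Lgr5-DTR and 0.0129 to 0.0201 in wild type libraries. The ratio of 9530003J23Rik was 0.0172 to 0.0442 in Lgr5-DTR luminal and 0.0634 to 0.108 in wild type luminal libraries, without overlap. Tgm4 was at levels near those of Pbsn in the Lgr5-DTR luminal libraries, at 0.896 to 1.16 times. In basal cells it was at 0.789 to 1.03 times in Lgr5-DTR and 1.07 to 2.05 times in wild type libraries, and in stromal cells at 0.7104 to 3.97 times in Lgr5-DTR and 0.620 to 1.01 times in wild type libraries.

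**Figure D4:**
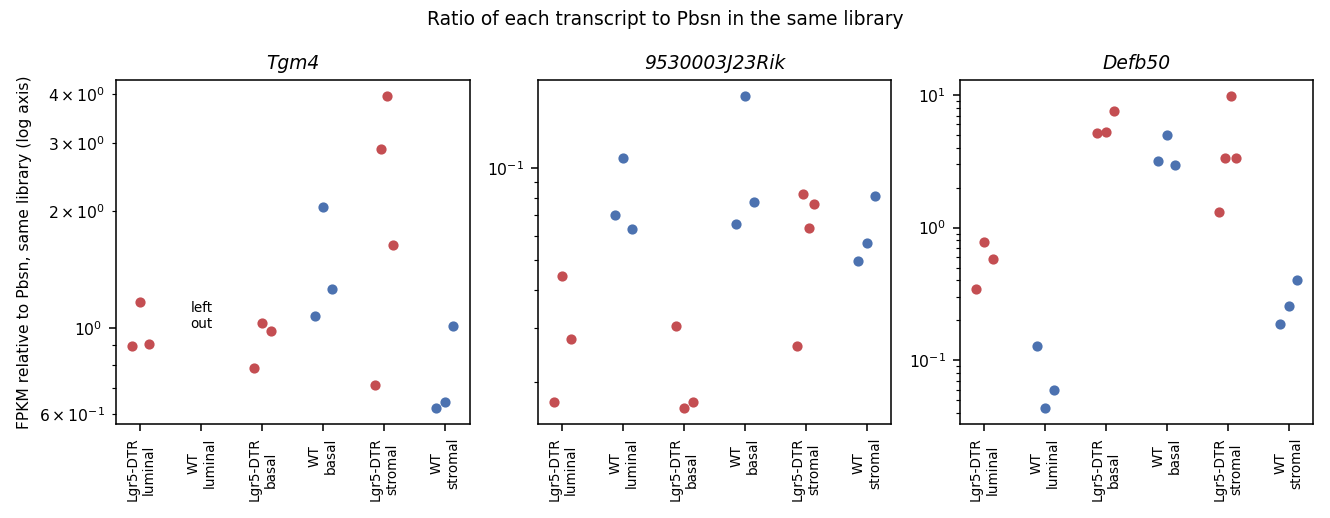
FPKM of Tgm4, 9530003J23Rik and Defb50 divided by that of Pbsn in the same library, on log axes, with a point for each library (red Lgr5-DTR, blue wild type) by group. The Defb50 ratio lies at 0.343 to 0.778 in Lgr5-DTR luminal and 0.0433 to 0.128 in wild type luminal libraries, and at 2.98 or more in every basal library.

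Over the 6 luminal libraries, the members that fell also varied together, which is a description since genotype is shared by the points. On the log2 scale Pearson's r with Pbsn was 0.98 for Fcgbp, 0.96 for Coch, 0.94 for Azgp1, 0.92 for 9530003J23Rik, 0.29 for Msmb and -0.95 for Defb50. Over all 19 libraries, where the populations set most of the spread, r with Pbsn was 0.99 for Azgp1, 0.78 for Defb50 and -0.23 for Coch. Over the luminal libraries, r of Msmb with the other members ran from -0.14 for Defb50 to 0.60 for 9530003J23Rik.

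Lists of related genes were read in the same fits. Other secreted proteins of reproductive or mucosal epithelium had 21 of 30 genes tested in luminal cells. Of these, 3 rose and 2 fell, beside 2.62% called higher and 0.513% called lower of all tested genes. The median log2 difference was 0.15 against 0.10 over all genes. Ren1, which encodes renin, fell to 451 ± 156 FPKM in Lgr5-DTR luminal cells, against 6410 ± 3353 FPKM in wild type (SD, n = 3 each), a log2 difference of -3.76 (SE 0.36, limma adjusted p = 0.00318). Fgl1, a secreted fibrinogen-like protein, fell by 1.11 on the log2 scale (limma adjusted p = 0.0207), and Lyz2, the lysozyme of macrophages, rose by 2.37 (limma adjusted p = 0.0354). Wfdc15b, a protein with a whey acidic protein domain, rose by 1.31 (limma adjusted p = 0.0383) at 2.77 FPKM in Lgr5-DTR and 0.516 FPKM in wild type cells. In basal cells 4 of 17 rose and 1 fell, beside 6.50% and 4.46% of all tested genes: Clu (3.51), Spint1 (1.70), Wfdc2 (1.48) and Lyz2 (1.21) had limma adjusted p of 0.00167 to 0.0159. None of 16 was called in stromal cells, where 1.17% of all tested genes were. Clu and Wfdc2 also stand in the list of proximal luminal markers, and Lyz2 in that of macrophage markers.

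The machinery of secretion was read as a list of chaperones, disulfide isomerases, translocon subunits and other proteins of the endoplasmic reticulum. All 26 genes were tested in luminal cells, where 1 fell, while 3.14% of all tested genes were called, with a median log2 difference of -0.27 against 0.10 over all genes. That gene was Herpud1, a component of endoplasmic-reticulum-associated degradation, at 372 ± 65.9 FPKM in Lgr5-DTR and 714 ± 34.7 FPKM in wild type luminal cells (SD, n = 3 each, log2 difference -0.95, limma adjusted p = 0.0292). Tram1, Manf and Sec61b had log2 differences of -0.54, -0.56 and -0.55 and limma adjusted p of 0.110, 0.144 and 0.166. With a term for the tables with low-data entries 7 of the 26 were called, in a fit that called 750 genes in all, and without wild type replicate 3 none was. In basal cells 1 of 23 fell, Xbp1, a transcription factor of secretory cells (log2 difference -0.57, limma adjusted p = 0.0401). There 4.46% of all tested genes were called lower. In stromal cells none of 24 was called, beside 1.17% of all tested genes.

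Genes known to respond to androgen had 15 of 18 tested in luminal cells, with 1 higher and 1 lower and a median of 0.02. Of all tested genes, 2.62% were called higher there and 0.513% lower. Sord, sorbitol dehydrogenase, fell by 1.02 on the log2 scale (limma adjusted p = 0.0358) and Ndrg1 rose by 1.37 (limma adjusted p = 0.0353). Pmepa1 (0.95, limma adjusted p = 0.0506) and Tmprss2 (-0.79, limma adjusted p = 0.0810) were not called. In basal cells, where 6.50% of all tested genes were called higher and 4.46% lower, 3 of 16 rose (Tsc22d1 by 1.53, Tmprss2 by 1.23, Abcc4 by 1.70) and 2 fell, among them Klf9 (-0.75, limma adjusted p = 0.0213). None of 16 was called in stromal cells, where 1.17% of all tested genes were.

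The genes whose levels were most like those of each member were found by Pearson's r on the log2 scale, over 19 libraries and over 16 for Tgm4. Since all points share the sort, these values describe the population pattern. Pbsn was closest to Fgl1 (0.992), Agr2, a disulfide isomerase of secretory epithelium (0.982), and Glb1l3 (0.981). Azgp1 was closest to Fgl1 (0.994), Prdx6, a peroxiredoxin (0.990), and Glb1l3 (0.989), and Tgm4 to Tcaf3 (0.992), Gsdma (0.991) and Prdx6 (0.991). Msmb had Folr1, a folate receptor (0.982), Dsc1 (0.974) and Entpd3 (0.971) as nearest genes. Fcgbp had Egf, epidermal growth factor (0.987), Foxi1 (0.987) and Gad2 (0.986), and 9530003J23Rik had Ms4a5 (0.982), Lamtor2 (0.979) and Pcp4l1 (0.979). The nearest genes of Coch were Fth1, the ferritin heavy chain (0.979), Slc10a6 (0.978) and Pttg1 (0.974). Defb50 stood further from other genes, with Slc35c1, a fucose transporter, at 0.951, Prr9 at 0.944 and Stxbp2 at 0.940. Prr9 had means of 3125 FPKM in Lgr5-DTR luminal, 1722 FPKM in wild type luminal, 465 FPKM in Lgr5-DTR basal and 501 FPKM in wild type basal cells.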

How the data were processed

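RNA of sorted anterior prostate cells had been amplified and sequenced per the labels' protocols. The authors' deposited tables give FPKM and coverage per RefSeq transcript on mm10, made with TopHat2 and Cufflinks per the submitters' processing notes (versions and annotation release not given in the sources used here). Each table listed 34535 transcripts of 24343 gene symbols with a status per estimate. Starts in the tables count from 0 and are printed 1-based.

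FPKM were summed per gene symbol. Genes with a failed or capped estimate in a fit were left out of it, and a gene was tested when at least 3 libraries of the fit reached 1 FPKM. Each comparison was fitted alone with limma 3.58.1 in R 4.3.3 (trend, robust empirical Bayes) on log2(FPKM + 1), a scale that understates changes of low genes, and called at a Benjamini-Hochberg adjusted p of 0.05 over all tested genes. SEs of log2 differences had medians of 0.23 (luminal), 0.20 (basal) and 0.26 (stromal). Deposited coverage multiplied by transcript length gave the depth, with no counts and hence no counting intervals. Values were summed with pandas 2.3.3 and numpy 2.4.6 under Python 3.11.15, and figures drawn with matplotlib 3.10.9. The fits were checked on simulated data.

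All 9 names of the set are accounted for. From each other list, counts and up to 4 genes with the smallest p per genotype comparison were named, and for each member the 3 most alike genes that averaged 5 FPKM or more in some group, leaving out Gm and Rik names. Members and lists were chosen with earlier results of these data known. Alternatives were other pseudocounts, filters, scalings, fits, blocks and leaving out each library. No libraries were identical (highest correlation 0.9928).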

Additional observations from a re-analysis of the deposited data

Results flagged for a closer look

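Lgr5-DTR stromal replicate 1 lay far from the other 3 libraries of its group, by the gap to its nearest neighbour relative to the range of the group. This held for 4 of the 8 found members on the FPKM scale, and the rule was not applied on the log2 scale. Its rate of about 1 flag in 20 groups is for normally distributed values, which FPKM need not be. No chance rate is therefore given for these flags. On the log2(FPKM + 1) scale, Pbsn read 7.91 in this library and 4.44, 3.21 and 4.69 in the others. The library read 239 FPKM of Pbsn (20.7, 8.28 and 24.9 in the others), 3.30 FPKM of Azgp1 (0.48, 0.51 and 0.21), 0.33 FPKM of Fcgbp (0.06, 0.09 and 0.10) and 314 FPKM of Defb50 (69.8, 81.7 and 83.4). These genes are not independent flags, since they vary together across libraries. Its luminal markers summed to 277 FPKM against 93.3, 91.8 and 151 FPKM, and its basal markers to 59.98 FPKM against 26.5, 21.4 and 59.98 FPKM. The part of this difference in the result was not tested.

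The genotype difference of Fcgbp differed between luminal and basal cells, by -1.72 on the log2 scale (limma, Benjamini-Hochberg adjusted p = 0.00596 over 11275 genes). Fcgbp was lower in 3 of 3 Lgr5-DTR luminal libraries than in any wild type luminal library, and all basal values were under 1 FPKM, where this scale compresses change. Fcgbp was tested through its luminal levels, and with a pseudocount of 0.1 the difference was -1.28 and was not called (limma adjusted p = 0.0659).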

How the results depend on the processing

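In the luminal comparison (330 genes called, 6 of them members) the called genes numbered 4 with no filter (members 0), 214 with quantile normalization, 872 in a fit over all libraries, 755 with a replicate block and 750 with a term for the tables with low-data entries. Leaving out 1 library gave 0 to 876 genes and 0 to 6 members. In basal cells (1069, 1 member) they were 492 with no filter and 213 with the replicate block, both with 0 members, as with a pseudocount of 0.1; leaving out 1 library gave 290 to 2231 genes and 0 to 1 members. In stromal cells (125, 0 members) they were 36 with no filter, 81 with TMM scaling, 76 with quantile normalization, 74 when scaled to the other genes, 366 in a fit over all libraries, 49 with the low-data term, which here only removes Lgr5-DTR replicate 3, and 1041 with the replicate block, which called 3 members (Azgp1 and 9530003J23Rik lower, Defb50 higher) and in which Lgr5-DTR replicate 4 has no partner and no weight (232 genes and 0 members without that library and with no block); leaving out 1 library gave 31 to 232. For the interaction (624, 1 member) they were 375 with no filter and 1183 with a block by title number, and 0 members with a pseudocount of 0.1; leaving out 1 library gave 222 to 1014 genes and 1 to 2 members. The cause of these shifts was not tested. Same-numbered libraries did not all deviate together (r from -0.12 to 0.38 in luminal, -0.53 to -0.23 in basal and -0.05 to 0.49 in stromal cells), so the numbers do not pair them, and the block by title number could not be fitted for wild type luminal against stromal cells. Both wild type comparisons kept their member calls in every setting, except that Fcgbp missed the filter when a luminal library was left out.

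Pbsn in luminal cells was not called with quantile normalization (-0.26), which by construction holds down the top-ranked gene, in the fit over all libraries (limma adjusted p = 0.472) or without robust estimation (0.0935). Azgp1 was not called in the fit over all libraries (0.103), nor Defb50 with quantile normalization (0.0638) or the low-data term (0.0507). Signs turned only for members that were not called. Leaving out 1 library, the basal difference ranged from -0.73 to 0.38 for Azgp1 (turned without Lgr5-DTR replicate 3) and -0.54 to 0.37 for Defb50 (turned without the same library, and without wild type replicate 2), and the stromal one of Coch from -0.12 to 0.44 (turned without wild type replicate 1 and without Lgr5-DTR replicate 3, at -0.12, as in the low-data fit, which is the same removal). In the interaction the range was -0.99 to 0.18 for Pbsn and -0.78 to 0.19 for 9530003J23Rik, turned without Lgr5-DTR basal replicate 1 and for 9530003J23Rik also without wild type basal replicate 1 (0.0019). Interaction signs also turned with a pseudocount of 0.1 for Coch (0.14) and 9530003J23Rik (0.27), with quantile normalization for Pbsn (0.56) and with the title block for Pbsn (0.11) and 9530003J23Rik (0.12). The median log2 difference over all tested genes itself shifted by -0.15 in the luminal comparison under quantile normalization. In the stromal comparison that median shifted by 0.11 (quantile) and 0.13 (scaled to the other genes). Without counts, depth limits cannot be given for members under 1 FPKM.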
